A study of Homo sapiens with 6 samples.

Results

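Apolipoproteins and the lipid transfer protein that loads apolipoprotein B were followed in Hep3B cells with and without a guide against RFX6. This group of 10 genes was chosen by gene symbol and holds APOA1, APOA2, APOA4, APOB, APOC1, APOC3, APOE, APOH, APOM and MTTP. All 10 were found among the 16721 rows of the count table, and all 10 passed the filter on low counts. Hep3B, an established human line, was grown out of a hepatocellular carcinoma. The RNA-seq data comprise 3 libraries of cells carrying a control guide (sgControl, genotype labelled WT) and 3 libraries of RFX6 knockout cells (sgRFX6, also RFX6-KO). The guides were delivered with Cas9 on a lentiviral vector, and the cells were selected with puromycin. Colonies grown from single cells were expanded, so an RFX6-KO line may stand for 1 clone. All sgRFX6 columns are named after 1 RFX6 guide of the paper, sg3, so guide and knockout cannot be told apart. The sources used here do not say whether the 3 libraries of a group came from separate cultures, and p-values then measure only the spread between these libraries, which may be technical. RFX6 is a DNA-binding factor of the regulatory factor X family, known best from the pancreatic islet and the gut. The comparison asks which transcripts changed when it was targeted in liver cancer cells.

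Liver and intestine secrete triglyceride in large particles that are built around a single copy of apolipoprotein B. The microsomal triglyceride transfer protein, encoded by MTTP, moves lipid onto the growing apolipoprotein B chain in the endoplasmic reticulum, and without that step the chain is degraded. Smaller apolipoproteins sit on the surface of these particles or form high-density lipoprotein (HDL), where they activate or inhibit lipases and bind receptors. The genes lie partly in clusters: APOA4, APOC3 and APOA1 share 17.3 kb of chromosome 11, and APOE and APOC1 share 13.6 kb of chromosome 19 (GENCODE 29 on GRCh38).

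Promoter sequence is shown for MTTP, the group's 1 gene past the test threshold, and for APOA4, which lies in the chromosome 11 cluster. RefSeq (GRCh38.p14) gave 10 promoter windows for 7 of the 10 genes, and there was no entry for APOA1, APOB or APOC3. Each run below is the 250 bases before the transcript start, 5′ to 3′ on the strand of the gene, and capitals mark the matches described after it.
MTTP, chr4:99574574-99574823, plus strand: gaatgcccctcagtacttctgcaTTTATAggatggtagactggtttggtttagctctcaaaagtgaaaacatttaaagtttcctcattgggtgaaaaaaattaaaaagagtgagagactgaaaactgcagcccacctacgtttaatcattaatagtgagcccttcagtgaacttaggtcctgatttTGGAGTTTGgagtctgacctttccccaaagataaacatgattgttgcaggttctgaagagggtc
APOA4, chr11:116823305-116823554, minus strand: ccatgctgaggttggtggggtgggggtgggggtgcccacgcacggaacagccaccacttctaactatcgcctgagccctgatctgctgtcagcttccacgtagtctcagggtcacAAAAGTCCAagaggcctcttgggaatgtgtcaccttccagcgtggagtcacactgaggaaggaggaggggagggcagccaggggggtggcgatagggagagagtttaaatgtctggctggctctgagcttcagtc
The motifs searched, on both strands, were the TATA box (TATAAA, exact), an element of HNF4 (CAAAGTCCA, up to 1 mismatch) and the X-box bound by RFX factors (GTTNCCA joined to its reverse complement, up to 3 mismatches). Among 35116 promoter windows of the same length, 10.7% held the TATA box, 5.94% the HNF4 element and 10.4% the X-box. The MTTP window held an HNF4 match on the opposite strand from 64 to 56 bases before the start, and an exact TATA box match on the opposite strand from 227 to 222. In APOA4 the capitals mark an HNF4 match from 135 to 127 bases before the start. The APOM window held an HNF4 match at 214 to 206. X-box matches were found in a second, upstream window of MTTP (chr4:99563880-99564129, 165 to 152 bases before its start) and in 1 of the 3 windows of APOE, each with 3 mismatches. Another APOE window held an HNF4 match on the opposite strand, at 54 to 46. The windows of APOA2, APOC1 and APOH held none of the motifs. These are matches of letters and do not show binding.

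The libraries held between 16730386 and 25070793 counts, so that 3 counts corresponded to between 0.121 and 0.188 CPM (counts scaled to library size with edgeR's TMM factors). Libraries of 1 group differed by more than sampling noise (chi-square per degree of freedom from 16.9 to 122). A library's deviation from the other 2 of its group varied with transcript GC content, and sgRFX6 library 3 stood apart most, with a Spearman correlation across 12216 genes of -0.85. RFX6 itself was counted 117, 144 and 170 times in sgControl and 69, 59 and 77 times in sgRFX6. Its mean was 6.27 ± 0.931 CPM (SD, n = 3) in sgControl and 3.54 ± 0.146 CPM (SD, n = 3) in sgRFX6, and the groups did not overlap. On the log2 scale the change was -0.82 ± 0.26 (standard error) with an adjusted p of 0.142 in edgeR's quasi-likelihood test, so the transcript of the targeted gene was lower but not past the threshold of 0.05.

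The liver label was checked against 20 hepatocyte markers. All 20 were listed and 16 were tested, but their summed level was only 142 to 194 CPM in sgControl and 113 to 138 CPM in sgRFX6. Albumin (ALB), the main plasma protein made by hepatocytes, was counted 325, 793 and 298 times in sgControl and 434, 293 and 576 times in sgRFX6. Transthyretin (TTR) did not exceed 21 counts in any library, and haptoglobin (HP) did not exceed 7. Alpha-fetoprotein (AFP), whose counts are given below, was also low in sgControl. Of 14 markers of intestinal epithelium, 9 were listed and all 9 were tested, with summed levels of 1425 to 2534 CPM in sgControl and 2490 to 2851 CPM in sgRFX6. Per kilobase of transcript, ALB stood at 5.98 RPKM in sgControl, where the intestinal genes VIL1 and LGALS4 stood at 65.4 and 216 RPKM. CDX1, FABP2, SI, MUC2 and LCT were not listed. In libraries labelled as a liver cancer line, ALB, TTR and HP were thus low and several intestinal transcripts high, in both groups, while the plasma protein gene APOH was abundant (57.1 RPKM in sgControl). Of the 9 tested intestinal markers, 7 had log2 fold changes above 0 and 2 below (median 0.77). Of these 9, KRT20, CEACAM5 and GPA33 were higher in sgRFX6 with adjusted p-values of 0.0043, 0.00107 and 0.0251 from edgeR's quasi-likelihood test. Over all 12839 genes tested, 3.74% passed that test, 1.81% lower and 1.92% higher in sgRFX6. The summed level of 12 fibroblast markers was mostly FN1. It ranged from 8399 to 14625 CPM in sgControl and from 9383 to 11014 CPM in sgRFX6. Of the 8 tested, 1 had a log2 fold change above 0 and 7 below. COL1A1, COL1A2, COL3A1 and SPARC, 4 of these 8, were lower in sgRFX6 by the same test. The summed level of 11 listed macrophage markers ranged from 78.3 to 166 CPM in sgControl and from 75.1 to 115 CPM in sgRFX6. Of the 7 tested, 3 had log2 fold changes above 0 and 4 below (median -0.06), and CD163 and ITGAM were higher in sgRFX6 by the same test. The part of these markers in the results below was not tested. In bulk RNA, fewer cells of a type and less RNA per cell cannot be told apart.

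MTTP fell in RFX6-KO cells, APOB was lower in each library without passing the test, and the small apolipoproteins had estimates in both directions. MTTP was 4.07-fold lower in mean CPM and was the 1 of 10 members past the threshold. APOB, APOA4 and APOC3 were 2.46-fold, 2.99-fold and 4.25-fold lower in mean CPM, and APOA2 was 2.59-fold higher, without passing the test. Over all 12839 genes tested, 480 (3.74%) passed, of which 233 (1.81%) were lower and 247 (1.92%) higher in sgRFX6, and 1 call does not set the group apart from that background. Without sgRFX6 library 3, 2 of 10 members passed (MTTP and APOB), among 718 genes. MTTP, APOB, APOA4, APOC3 and APOH, 5 of the 10 members, were lower in each sgRFX6 library than in any sgControl library, against 11.2% of all genes tested. APOA2 was higher in each, against 12% of all genes. The members were chosen with earlier results of these data known, so these shares do not test the group. The median log2 fold change of the 10 members was -0.29 and that of all genes 0.02, and without sgControl library 2 the median of the members turned to 0.18. The plot of CPM by library and the plot of log2 fold changes show both sides of this.

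**Figure D1:**
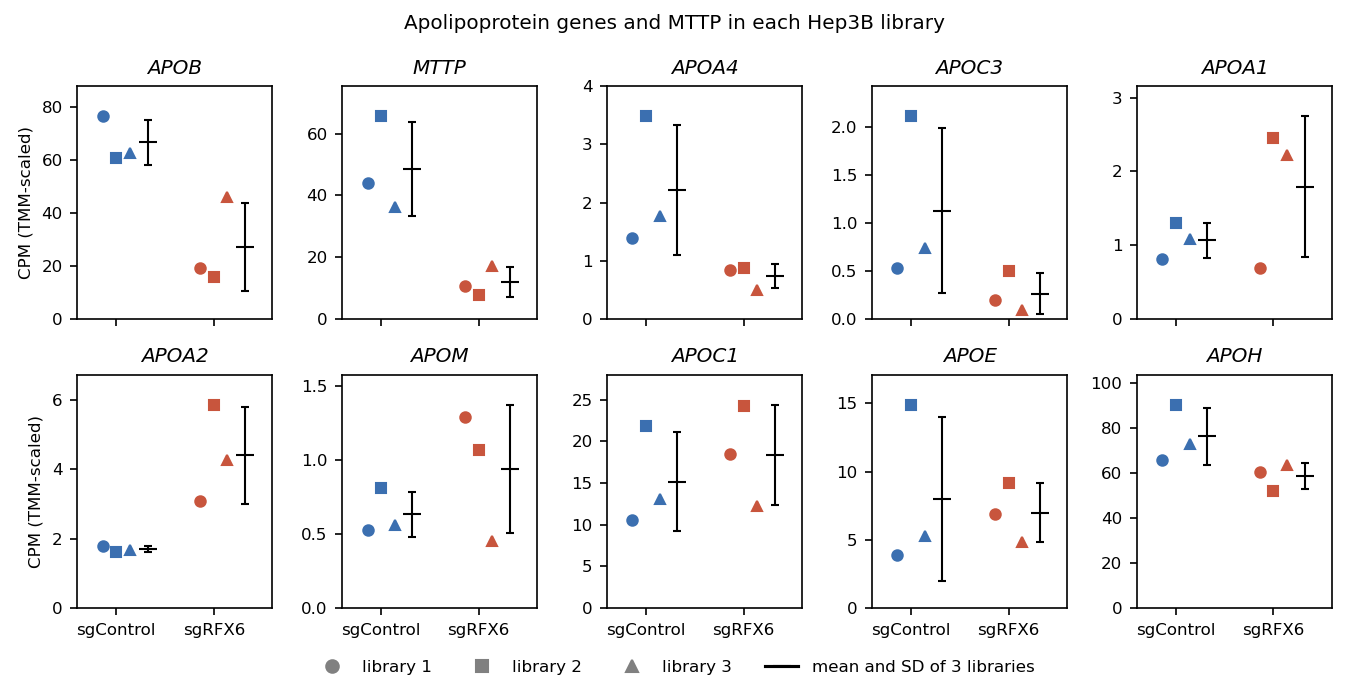
CPM of each of the 10 genes (vertical axes, linear, from 0) in the 3 sgControl and 3 sgRFX6 libraries, with markers for libraries 1 to 3 and bars for the mean and SD. MTTP lay between 36.2 and 65.6 CPM in sgControl and between 7.92 and 17.2 CPM in sgRFX6, whereas APOE, APOC1, APOA1 and APOM overlapped between groups.

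**Figure D2:**
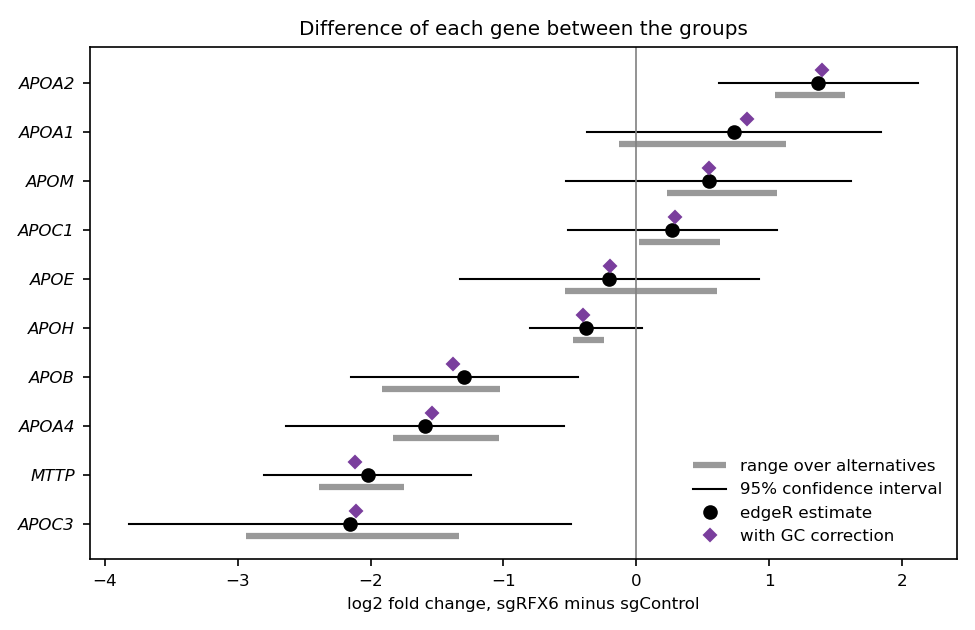
Log2 fold change (sgRFX6 minus sgControl, horizontal axis) of each of the 10 genes (black points) with its 95% confidence interval from edgeR, unadjusted for the number of genes (black lines), the estimate after GC correction (diamonds) and the range over the 16 alternatives (grey bars), ordered by size. MTTP, at -2.02, was past the adjusted threshold of 0.05, and APOC3 had the lowest estimate, -2.15, on few counts and with a wide interval.

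MTTP lies on chromosome 4 from 99563761 to 99623999 on the plus strand. The sgControl libraries gave 911, 1620 and 838 MTTP counts, or 43.9, 65.6 and 36.2 CPM. The sgRFX6 libraries gave 214, 126 and 379, or 10.6, 7.92 and 17.2 CPM. The highest sgRFX6 library thus lay below the lowest sgControl library. Mean levels were 48.5 ± 15.3 CPM (SD, n = 3) in sgControl against 11.9 ± 4.78 CPM (SD, n = 3) in sgRFX6, and MTTP fell by 2.02 on the log2 scale (standard error, SE, 0.34, edgeR quasi-likelihood adjusted p = 0.0141). Leaving out sgRFX6 library 1 ended the call (-1.94, adjusted p = 0.0699 from edgeR), and without sgRFX6 library 3 it was -2.38 (adjusted p = 0.00833 from edgeR). Around MTTP, the median of the 50 nearest tested genes was 0.03. On the opposite strand, TRMT10A overlaps MTTP by 272 bases and the antisense gene AC083902.1, which is no row of the table, by 29201 bases, introns included. The sources used here do not say whether counting used strand, so reads from the 2 strands may not be told apart there. The same holds for APOA1, which the antisense gene APOA1-AS, also no row of the table, overlaps by 1834 bases.

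APOB encodes the structural protein of very-low-density lipoprotein (VLDL), low-density lipoprotein and chylomicrons. It lies on chromosome 2 from 21001429 to 21044073 on the minus strand. Its counts were 1586, 1495 and 1454 in sgControl, close to each other, and 389, 253 and 1015 in sgRFX6. On the CPM scale these were 76.4, 60.5 and 62.7 against 19.3, 15.9 and 46.1. The groups did not overlap, but sgRFX6 library 3 lay far above the other 2 of its group. Mean levels were 66.6 ± 8.59 CPM (SD, n = 3) in sgControl against 27.1 ± 16.5 CPM (SD, n = 3) in sgRFX6, with a log2 fold change of -1.29 (SE 0.38, edgeR quasi-likelihood adjusted p = 0.116). Without sgRFX6 library 3 the log2 fold change was -1.91 and passed (adjusted p = 0.00366 from edgeR). After correction for the GC trend, under which the same libraries stood at 71.0, 64.9 and 63.4 against 20.8, 18.0 and 37.6 CPM, it was -1.38 and passed as well (adjusted p = 0.0134 from edgeR). APOB passed under 6 of the 16 alternatives and not under the other 10. MTTP counts per 100 APOB counts were 57.4, 108 and 57.6 in sgControl and 55.0, 49.8 and 37.3 in sgRFX6. The lowest sgControl value was above all sgRFX6 values by a margin smaller than the spread within either group.

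In the remaining assembly and secretion machinery 1 gene passed the test, and the estimates went in both directions. Of 32 listed genes for folding, lipidation, transport and sorting of the particles, 30 were tested, 14 with a positive and 16 with a negative log2 fold change and a median of -0.04. SORT1, which encodes sortilin, a sorting receptor that binds apolipoprotein B in the Golgi, was the 1 gene called, against 3.74% of all genes tested. It was counted 790, 1101 and 937 times in sgControl and 320, 214 and 441 times in sgRFX6, with no overlap between the groups. SORT1 fell by 1.32 on the log2 scale (SE 0.22, edgeR quasi-likelihood adjusted p = 0.0132), and the call was lost without sgControl library 3 (adjusted p = 0.0845 from edgeR) or without sgRFX6 library 1 (adjusted p = 0.0767 from edgeR). P4HB, the protein disulfide isomerase that pairs with the MTTP product, had a log2 fold change of -0.03 (edgeR adjusted p = 0.966, 95% confidence interval -0.45 to 0.38). SAR1B, the GTPase for export of large particles from the endoplasmic reticulum, stood at 29.1 CPM in both groups. PLTP, the phospholipid transfer protein, had at most 4 counts in any library and was not tested. SMLR1 and CIDEB, also on this list and named after their values were seen, had log2 fold changes of -1.47 and -1.35. Neither passed (adjusted p = 0.0624 and 0.286 from edgeR). SMLR1 was lower in each sgRFX6 library than in any sgControl library, with 35, 59 and 53 counts against 12, 15 and 17. CIDEB overlapped, with 18, 77 and 30 counts against 11, 17 and 11, and sgControl library 2 stood apart. Among the 30 tested, 2 genes were lower and 2 higher in each sgRFX6 library, against 11.2% and 12% of all genes tested. These counts do not set the list apart from that background. Some intervals were too wide to show that a gene was unchanged, as for MIA2 (-1.52 to 2.67).

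None of the 3 genes of the chromosome 11 cluster passed the test, and their differences from each other were not tested. APOA4, whose product rides on chylomicrons and HDL, spans 116820700 to 116823306 on the minus strand. It was counted 29, 86 and 41 times in sgControl and 17, 14 and 11 times in sgRFX6, or 1.40, 3.48 and 1.77 CPM against 0.844, 0.879 and 0.499 CPM. All sgRFX6 libraries were lower, and the largest part of the spread was sgControl library 2. The log2 fold change was -1.59 (SE 0.46, edgeR quasi-likelihood adjusted p = 0.114), and it passed after correction for the GC trend (-1.53, adjusted p = 0.0405 from edgeR). APOA4 passed under only 2 of the 16 alternatives, and without sgControl library 2 it was -1.11 (adjusted p = 0.222 from edgeR). APOC3, an inhibitor of lipoprotein lipase and of remnant uptake, spans 116829706 to 116833072 on the plus strand. It was counted 11, 52 and 17 times in sgControl and 4, 8 and 2 times in sgRFX6, or 0.530, 2.11 and 0.734 CPM against 0.199, 0.503 and 0.0908 CPM. The lowest sgControl value and the highest sgRFX6 value were nearly equal. APOC3 changed by -2.15 on the log2 scale with an SE of 0.73, and its adjusted p in edgeR was 0.176. Without sgControl library 2 the estimate was -1.33 (adjusted p = 0.417 from edgeR), and without sgRFX6 library 2 it was -2.93 (adjusted p = 0.146 from edgeR). On these few counts the 95% confidence interval ran from -3.82 to -0.49. APOA1, the main protein of HDL, spans 116835751 to 116837950 on the minus strand. It was counted 17, 32 and 25 times in sgControl and 14, 39 and 49 times in sgRFX6, or 0.819, 1.30 and 1.08 CPM against 0.695, 2.45 and 2.22 CPM. One sgRFX6 library was below all sgControl libraries and 2 were above them. APOA1 had a log2 fold change of 0.74 (SE 0.49, edgeR quasi-likelihood adjusted p = 0.548), and limma-voom with sample weights turned it to -0.13. The median of the 50 nearest tested genes was 0.37 for APOA4 and APOC3 and 0.36 for APOA1. Both lower genes thus lay among neighbours with higher estimates. This was not particular to the cluster, since the median was 0.34 around SAA4 and 0.32 around TMEM41B, elsewhere on chromosome 11.

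APOA2, the second protein of HDL, lies on chromosome 1 from 161222292 to 161223631 on the minus strand. It was counted 37, 40 and 39 times in sgControl and 62, 93 and 94 times in sgRFX6. This was 1.78, 1.62 and 1.68 CPM against 3.08, 5.84 and 4.27 CPM, with the sgControl libraries close together and all sgRFX6 libraries above them. Mean levels were 1.69 ± 0.0820 CPM (SD, n = 3) in sgControl against 4.4 ± 1.39 CPM (SD, n = 3) in sgRFX6. The log2 fold change of 1.37 (SE 0.33, edgeR quasi-likelihood adjusted p = 0.0615) missed the threshold, and it passed after correction for the GC trend (1.40, adjusted p = 0.0220 from edgeR). APOA2 passed under 3 of the 16 alternatives and not under the other 13. APOM, a lipocalin that carries sphingosine-1-phosphate on HDL, lies on chromosome 6 from 31652416 to 31658210 on the plus strand. Its counts were 11, 20 and 13 in sgControl and 26, 17 and 10 in sgRFX6, and the groups overlapped (log2 fold change 0.54, SE 0.47, edgeR adjusted p = 0.675). APOM overlaps BAG6 by 290 bases on the opposite strand, and with so few counts its values are uncertain.

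APOE and APOC1, neighbours on chromosome 19, overlapped between the groups, and neither passed the test. APOE, the ligand for uptake of remnant particles, spans 44905754 to 44909393 on the plus strand and was counted 80, 367 and 122 times in sgControl and 139, 146 and 107 times in sgRFX6. On the CPM scale these were 3.85, 14.9 and 5.26 against 6.90, 9.17 and 4.86, so sgControl library 2 alone was above all others. The log2 fold change of APOE was -0.20 (standard error 0.50, 95% confidence interval -1.33 to 0.93), and without sgControl library 2 it was 0.61. APOC1, an inhibitor of lipase and of cholesteryl ester transfer, spans 44914247 to 44919349 on the plus strand and was counted 219, 539 and 302 times in sgControl and 371, 386 and 270 times in sgRFX6. These were 10.5, 21.8 and 13.0 CPM against 18.4, 24.2 and 12.3 CPM, and the groups overlapped. The log2 fold change of APOC1 was 0.27 (SE 0.35, 95% confidence interval -0.51 to 1.06), and limma-voom with sample weights called it higher (0.59, adjusted p = 0.0263). Both genes were highest within sgControl in library 2, and the count of APOC1 per APOE count was 2.74, 1.47 and 2.48 in sgControl and 2.67, 2.64 and 2.52 in sgRFX6. Intervals this wide do not show that the genes were alike in both groups.

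APOH encodes beta-2-glycoprotein I, a plasma protein that binds phospholipid, and lies on chromosome 17 from 66212033 to 66256525 on the minus strand. It was counted 1362, 2220 and 1686 times in sgControl and 1212, 829 and 1398 times in sgRFX6. On the CPM scale these were 65.6, 89.9 and 72.8 against 60.2, 52.1 and 63.5, and the groups lay next to each other without overlap. After correction for the GC trend they overlapped. Mean levels were 76.1 ± 12.5 CPM (SD, n = 3) in sgControl against 58.6 ± 5.86 CPM (SD, n = 3) in sgRFX6, with a log2 fold change of -0.38 (SE 0.19, edgeR quasi-likelihood adjusted p = 0.389). For each of the 6 members whose groups did not overlap, the two-sided exact permutation test of CPM gave p = 0.1, the lowest value possible with 3 libraries against 3. The same test gave 0.4 for APOA1 and APOM, 0.6 for APOC1 and 0.9 for APOE.

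Compared per kilobase of exon (RPKM), the members spanned the range of expressed genes. In sgControl APOH led with 57.1 ± 9.36 RPKM (SD, n = 3), at the percentile 94.0 of 12216 tested genes. APOC1 followed with 12.3 ± 4.81 RPKM and MTTP with 8.99 ± 2.83 RPKM, which overlapped within their SD. APOB, at 4.49 ± 0.579 RPKM, and APOE, at 3.65 ± 2.73 RPKM, overlapped too, and with the length of the longest transcript instead of all exons their order turned (APOB 4.71 and APOE 6.62 RPKM). APOA2, APOA4 and APOC3, at 1.79, 1.5 and 1.30 RPKM, could not be ordered against their neighbours. APOA1 and APOM were lowest, at 0.747 ± 0.168 and 0.382 ± 0.0924 RPKM, the latter at the percentile 8.34. In sgRFX6 the order was APOH (44.0 RPKM), APOC1 (14.9), APOA2 (4.65), APOE (3.18), MTTP (2.21), APOB (1.83), APOA1 (1.26), APOM (0.565), APOA4 (0.503) and APOC3 (0.305). Within their SD, APOA2 (4.65 ± 1.47 RPKM), APOE (3.18 ± 0.985 RPKM), MTTP (2.21 ± 0.885 RPKM) and APOB (1.83 ± 1.11 RPKM) each overlapped the next in that order, and by the longest transcript APOE (5.78 RPKM) stood above APOA2 (4.74 RPKM). The 10 genes together took 0.0210%, 0.0258% and 0.0196% of all counts in sgControl and 0.0118%, 0.0114% and 0.0163% in sgRFX6. Within those counts MTTP took 21.4%, 25% and 18.5% in sgControl and 8.74%, 6.59% and 11.4% in sgRFX6, while APOH took 31.9%, 34.3% and 37.2% and then 49.5%, 43.4% and 41.9%. APOB took 37.2%, 23.1% and 32% of them in sgControl and 15.9%, 13.2% and 30.4% in sgRFX6, where library 3 again lay near the sgControl libraries.

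Members differed in how far libraries of 1 group lay apart. In sgControl the highest library exceeded the lowest by 3.97-fold for APOC3 and 3.86-fold for APOE, whose longest transcripts have a GC content of 60.4% and 68.5%, and by 1.10-fold for APOA2 (54.2%). APOA1, with 62.7% GC, had a ratio of 1.58 there. After the correction for GC content the sgControl ratios were 3.43 for APOC3 and 3.22 for APOE, and those of MTTP, APOH and APOA2 rose (1.81 to 1.98, 1.37 to 1.62 and 1.10 to 1.21). In sgRFX6 the ratio for APOE was 1.89 and fell to 1.20 after the correction, and that for MTTP (42.1% GC) fell from 2.17 to 1.41. For APOB (43.5% GC) it fell from 2.90 to 2.09. For APOA1 the ratio in sgRFX6 rose from 3.52 to 4.47, and for APOH from 1.22 to 1.30.

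**Figure D3:**
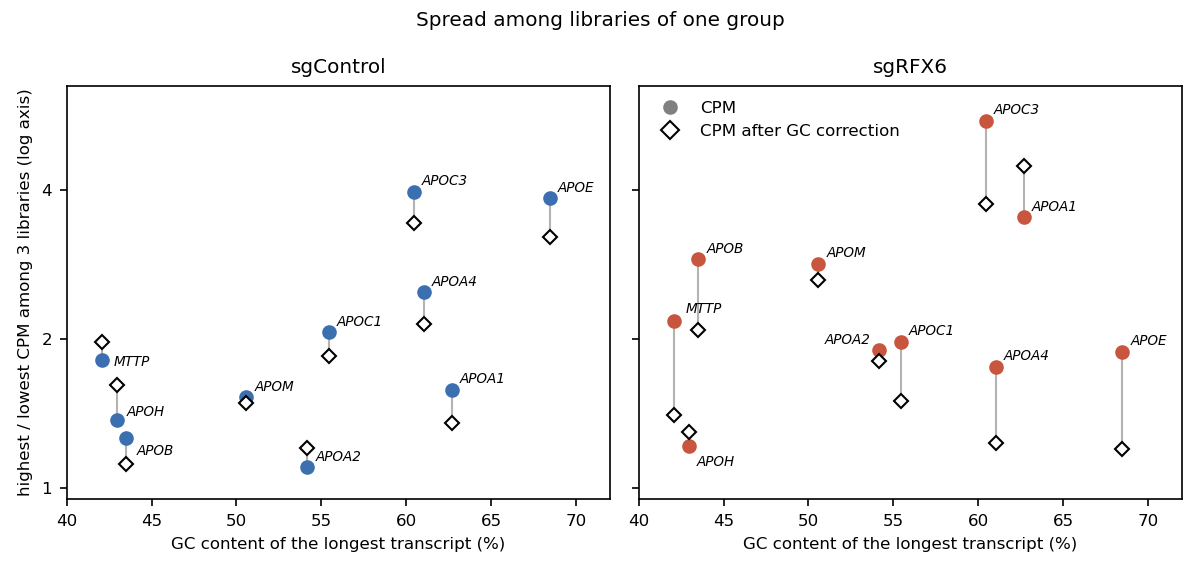
Ratio of the highest to the lowest CPM among the 3 libraries of a group (vertical axis, log scale) against the GC content of the longest transcript (horizontal axis, %), for sgControl and sgRFX6. Filled points are CPM and open diamonds are CPM after correction for the GC trend; for MTTP in sgRFX6 the ratio fell from 2.17 to 1.41.

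Other genes listed with the apolipoproteins, among them the paraoxonase PON1, gave no call. Of 17 listed, 16 were in the table and 8 were tested, 7 with a positive log2 fold change, with a median of 0.53. APOA5, an activator of lipoprotein lipase in the chromosome 11 cluster, and APOC2, the cofactor of that lipase, had at most 2 counts in any library. CLU (apolipoprotein J), PON1 (paraoxonase of HDL) and APOOL, named after their values were seen, did not overlap between the groups. They were higher in each sgRFX6 library than in any sgControl library, 3 of the 8 tested against 12% of all genes. The median of the 50 nearest tested genes was 0.02 for CLU, 0.28 for PON1 and 0.45 for APOOL. APOD, a lipocalin that did not pass the filter on low counts, was lower in each, with 7, 55 and 15 counts against 6, 5 and 4. CLU was counted 10281, 9789 and 11857 times in sgControl and 14228, 11838 and 11984 times in sgRFX6 (log2 fold change 0.51, adjusted p = 0.235 from edgeR). Among 14 genes of HDL formation and cholesterol exchange, 10 were tested and 0 passed edgeR's quasi-likelihood test, 2 having an unadjusted p under 0.05. ABCA1, which loads lipid onto apolipoprotein A-I, had a log2 fold change of 0.51 (edgeR adjusted p = 0.471), and LCAT, which esterifies cholesterol in HDL, had 0.04 (adjusted p = 0.978 from edgeR).

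Of the genes reported here, 3 passed among the receptors, the lipases and their regulators, against 3.74% of all genes tested. Of 12 tested genes for lipoprotein receptors and their regulators, 2 passed: SORL1 rose and VLDLR fell. SORL1, a sorting receptor that binds apolipoprotein E and lipoprotein lipase, was counted 575, 807 and 665 times in sgControl and 1567, 1094 and 1783 times in sgRFX6. SORL1 rose by 1.35 on the log2 scale (SE 0.18, edgeR quasi-likelihood adjusted p = 0.0043), and its 50 nearest genes had a median of 0.42. VLDLR, the receptor for very-low-density lipoprotein, stood at 21.3, 27.2 and 20.9 CPM in sgControl and 13.2, 10.6 and 10.9 CPM in sgRFX6. VLDLR fell by 1.0 (SE 0.23, edgeR adjusted p = 0.0450), and this call held without sgRFX6 library 3 and was lost when any other library was left out (adjusted p-values from 0.10 to 0.151 from edgeR). With a filter of 1 CPM in 3 libraries it was lost too (adjusted p = 0.0540 from edgeR). Of 11 tested lipases and their regulators, FURIN, the protease that cleaves several of them, was the 1 gene called. It was counted 3608, 5257 and 3630 times in sgControl and 1879, 1205 and 1298 times in sgRFX6. FURIN fell by 1.25 (SE 0.21, edgeR adjusted p = 0.0144) and passed with each library left out.

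Enzymes that supply triglyceride and the transcription factors of the liver programme gave 1 call each, against 3.74% of all genes tested. Of 16 tested genes for triglyceride synthesis, AADAC, an esterase of the endoplasmic reticulum linked to mobilisation of stored lipid, rose by 2.09 on the log2 scale (SE 0.37, edgeR quasi-likelihood adjusted p = 0.0180). It was counted 15, 12 and 18 times in sgControl and 45, 59 and 57 times in sgRFX6. The call was lost without sgControl library 1 or 3 or sgRFX6 library 2 (adjusted p-values 0.0576, 0.0690 and 0.0660 from edgeR). Of 28 tested transcription factors, NR1H4, the bile acid receptor FXR, rose by 2.41 (SE 0.44, edgeR adjusted p = 0.0203). It was counted 4, 5 and 3 times in sgControl and 22, 12 and 22 times in sgRFX6, and the call was lost without sgControl library 1 or 3 or sgRFX6 library 1 (adjusted p-values 0.0753, 0.105 and 0.0937 from edgeR). HNF4A, which drives many apolipoprotein genes and MTTP in liver, was 146, 161 and 146 CPM in sgControl and 135, 133 and 109 CPM in sgRFX6. Its groups did not overlap, with a log2 fold change of -0.27 (95% confidence interval -0.63 to 0.10, adjusted p = 0.494 from edgeR).

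Of the 16 tested hepatocyte markers, 6 passed, 2 of them higher and 4 lower in sgRFX6, against 3.74% of all genes tested. This list too was chosen with earlier results of these data known, so the share does not test it. AFP, the fetal counterpart of albumin, was counted 48, 39 and 51 times in sgControl and 201, 273 and 353 times in sgRFX6 and rose by 2.82 (adjusted p = 0.00254 from edgeR). That rise started from a low level in sgControl. AHSG (fetuin-A) rose by 1.68. The fibrinogen chains FGB and FGA fell by 2.45 and 1.74, CPS1 of the urea cycle fell by 2.52, and the retinol carrier RBP4 fell by 1.24. CPS1 and RBP4 lost the call without sgControl library 2 or 3 or sgRFX6 library 1 or 2 (adjusted p-values up to 0.105 and up to 0.126 from edgeR), and AHSG without sgControl library 1 or 3 or sgRFX6 library 1 (0.0533 to 0.0705). ALB had a log2 fold change of 0.12 (edgeR adjusted p = 0.928), and limma-voom with sample weights called it higher (0.56, adjusted p = 0.0354). The plot of the lists places these genes beside the apolipoproteins.

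**Figure D4:**
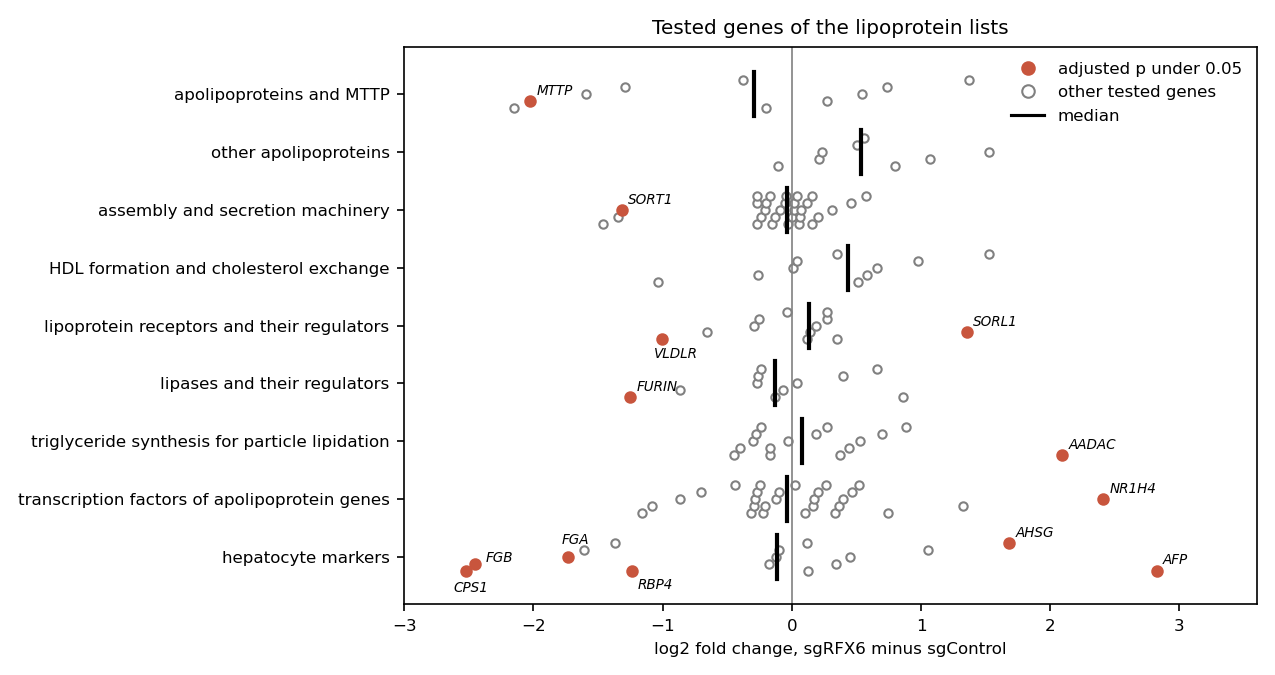
Log2 fold change (sgRFX6 minus sgControl, horizontal axis) of each tested gene reported here in the 10 members and the 8 other lists, with filled points for an adjusted p under 0.05 and a bar at each list's median. MTTP, SORT1, VLDLR, FURIN, FGB, FGA, CPS1 and RBP4 were called on the lower side, and SORL1, AADAC, NR1H4, AHSG and AFP on the higher side.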

How the data were processed

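RNA from 6 Hep3B libraries, 3 sgControl and 3 sgRFX6, was isolated with Trizol and sequenced on an Illumina platform. The authors deposited raw read counts per gene, without normalisation, in a table of 16721 rows. The submitters' processing notes name GRCh38 (hg38). The aligner, the counting program, the annotation and strandedness are not given in the sources used here. The control columns are named cas and were assigned by number to sgControl, since no other control group is labelled. One row without a gene name (at most 9.2e-05% of counts) was left out. The libraries held between 16730386 and 25070793 counts, and a floor of 3 counts per library was used, which covers counting error only because PCR reads are not independent molecules.

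All tests used edgeR 4.0.16 (R 4.3.3) on the deposited counts. The filter filterByExpr (minimum count 10, minimum total 15) left 12839 genes, with TMM scaling. The groups were compared by the quasi-likelihood test with no covariate, and Benjamini-Hochberg adjustment ran over all genes tested, with a threshold of 0.05. CPM was also compared by the exact permutation test. GENCODE 29 on GRCh38 gave positions, lengths and GC content. It matched 15422 rows by name and 266 through a synonym, and left 1033 unmatched. RPKM was CPM per kilobase of all exons of a gene. For the GC correction, a smooth trend (span 0.3) of each library with GC content was passed to edgeR as offsets for the 12216 tested genes (95.1%) with a GC value.

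The genes named are the 10 members, RFX6, HNF4A, ALB, ABCA1, LCAT, P4HB, PLTP, SAR1B, APOA5 and APOC2, and up to 6 genes per list with an adjusted p under 0.05. A few genes are left unreported, and the lists and their counts exclude them. Other named genes are cell type markers or were chosen after their values were seen. The members and lists were chosen with earlier results of these data known. The 16 alternatives were DESeq2 1.42.0, RLE factors, library size only, limma-voom (limma 3.58.1) with sample quality weights, robust dispersion, no filter, at least 1 CPM in 3 libraries, the replicate number as a block, the GC correction, both together, and each library left out in turn.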

Additional observations from a re-analysis of the deposited data

How the results depend on the processing

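MTTP kept its direction under all 16 alternatives (log2 fold change from -2.38 to -1.75) and passed under 15. Deviations of same-numbered libraries from their group means showed no sign of pairs (correlations -0.41, 0.17 and -0.09). These deviations also varied with GC content, so the numbers may still mark a shared culture or day. With the replicate block 648 genes and 3 members (APOB, APOC3 and MTTP) passed, and VLDLR did not (adjusted p = 0.0664 from edgeR). With the block and the GC correction these were 780 genes and 2 members (APOB and MTTP), with the GC correction alone 1339 and 4 (APOA2, APOA4, APOB and MTTP), with DESeq2 895 and 3 (APOA2, APOB and MTTP), and with limma-voom and sample weights 3998 and 7 (all but APOA1, APOE and APOH). Leaving out 1 library gave 212 (without sgControl library 3) to 718 genes and 0 (without sgRFX6 library 1) to 2 members. The cause was not tested. APOC3 and APOM were not tested with the filter of 1 CPM in 3 libraries.

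These estimates, none past the threshold, turned in sign. With limma-voom APOA1 was -0.13, APOE 0.47, P4HB 0.049 and SAR1B -0.16. With the GC correction P4HB was 0.013 and SAR1B -0.0026, and with the block and the GC correction 0.013 and -0.013. SAR1B was -0.0028 without a filter. With each library left out, APOE ran from -0.53 to 0.61, ALB from -0.089 to 0.63, LCAT from -0.27 to 0.31, P4HB from -0.11 to 0.086 and SAR1B from -0.17 to 0.20. Counts limit APOC3, APOM, APOA1 and APOA4, whose sgControl libraries held from 11 to 86 counts.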

Other observations

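Genes of APOB mRNA editing, in which a cytidine is deaminated so that a shorter apolipoprotein B is made in the intestine, were looked at after their values were seen. APOBEC1, the deaminase, had counts of 0, 0 and 1 in sgControl against 10, 12 and 21 in sgRFX6. It did not pass the filter on low counts and was not tested. Against a floor of 3 counts per library it was at least 5.57-fold higher in sgRFX6. Of its partners, A1CF had a log2 fold change of 0.22 (edgeR adjusted p = 0.909) and RBM47 had 0.27 (edgeR adjusted p = 0.630). A1CF was counted 653, 724 and 386 times in sgControl and 403, 194 and 1279 times in sgRFX6, where library 3 lay above all others. Editing itself cannot be read from counts per gene.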
